A study of Homo sapiens with 4 samples.

Results

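The CpGs described here are those of the mitochondrial genome: every CpG that the 4 libraries listed on contig M. There were 439 of them in each library, among 27484695 to 27551074 CpGs listed per library over the whole genome. The libraries were enzymatic methyl sequencing (EM-seq) of HEK293T, a human cell line that came from embryonic kidney cells. In EM-seq, enzymes protect modified cytosines and then deaminate the remaining cytosines of denatured DNA, so that an unmodified C is read as T. The wild type cells (WT) and the cells lacking ZNF274 (ZNF274KO), a KRAB zinc finger protein, gave 2 libraries per group. The ZNF274KO cells came from deletion of the gene with a pair of guides that flank it, puromycin selection and sorting of single cells, and all 4 libraries share the HEK293T background. CpGs of ZNF274 carried 5158 reads in WT 1 and 4275 in WT 2, against 0 in ZNF274KO 1 and 14 in ZNF274KO 2. The labels do not say that libraries of a group came from separate cultures or clones, so the p-values measure only the spread between these libraries, which may be technical.

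Mitochondrial DNA is a small circle, present in many copies per cell, that encodes ribosomal RNAs, transfer RNAs and subunits of the respiratory chain. Its strands differ in base composition and are called heavy and light, and the reference sequence is that of the light strand. Replication of the heavy strand starts in the control region, while the light strand starts at an origin between the tRNA genes MT-TN and MT-TC, where the exposed strand folds into a stem and loop. Whether human mitochondrial DNA carries CpG methylation has long been debated, and the nuclear genome holds many copies of mitochondrial sequence that can carry methylation of their own.

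The level of a CpG is the percentage of reads with C among reads with C or T. It was taken for the reference strand (Watson, the light strand) and for the opposite strand (Crick, the heavy strand). Each CpG under a 100-base read counts that read once more, and EM-seq does not separate 5-methylcytosine from 5-hydroxymethylcytosine. Contig L, with 3113 CpGs and almost no C reads, served as the unmethylated reference. Of the 439 CpGs, 435 could be matched in order and with the same neighbouring bases to the 435 CpGs of the mitochondrial sequence of GRCh37, which is 16569 bases long. The files number them 0 to 2 bases higher. Positions below are those of the GRCh37 sequence and of the Watson C, unless a file position is named. The 4 unmatched CpGs lie at file positions 262, 8860, 11018 and 15933.

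The sequences below are those around the CpGs that stood apart, taken from the plus strand of the GRCh37 mitochondrial sequence, with every CpG in capitals. The initial one lies between MT-TN (5657 to 5729) and MT-TC (5761 to 5826), at the light-strand origin, at chrM:5722-5771. Its perfect inverted arms of 11 bases run from 5730 to 5740 and from 5753 to 5763, with 12 bases between them. CpGs at 5737, 5740 and 5755 have their Watson C in an arm, and the CpG at 5743 lies between the arms.
MT-TN to MT-TC: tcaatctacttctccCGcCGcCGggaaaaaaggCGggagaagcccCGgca

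The following 5 lie in protein genes and hold the CpGs that were called with the largest excess of Crick over Watson: MT-ND1 at chrM:3529-3570, MT-ND2 at chrM:5439-5491, MT-ATP6 at chrM:8560-8604, MT-ND3 at chrM:10176-10223 and MT-CYB at chrM:14924-14965.
MT-ND1: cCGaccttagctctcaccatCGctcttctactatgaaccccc
MT-ND2: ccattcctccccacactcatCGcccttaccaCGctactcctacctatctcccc
MT-ATP6: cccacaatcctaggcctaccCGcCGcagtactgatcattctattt
MT-ND3: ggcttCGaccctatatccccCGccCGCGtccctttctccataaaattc
MT-CYB: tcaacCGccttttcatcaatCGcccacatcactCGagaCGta

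The last 2 are shorter inverted repeats with arms of 8 bases that hold several CpGs, at chrM:3890-3920 in MT-ND1 and at chrM:7325-7348 in MT-CO1. They are shown for comparison with the origin.
repeat in MT-ND1: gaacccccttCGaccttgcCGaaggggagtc
repeat in MT-CO1: agccttCGcttCGaagCGaaaagt

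Mitochondrial CpGs were read as C in well under 1% of reads in every library. The level over all 439 CpGs and both strands in WT 1 was 0.248% (95% Wilson interval 0.243 to 0.254). WT 2 had 0.227% (0.222 to 0.232), ZNF274KO 1 had 0.191% (0.186 to 0.195) and ZNF274KO 2 had 0.259% (0.253 to 0.265). The ZNF274KO libraries thus held both the lowest and the highest level, on either side of WT. Such intervals cover counting error only. The autosomes of the same libraries had levels of 59.5% to 61.5%, and contig P, a highly methylated contig, had 93.1% to 94.2%.

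WT had a mean level of 0.238% ± 0.0153 and ZNF274KO one of 0.225% ± 0.0481 (SD, n = 2 each). The difference of -0.0129 percentage points was smaller than the spread within ZNF274KO (two-sided exact permutation test, p = 1.0, where 2 against 2 libraries cannot go below 0.333). Without ZNF274KO 1 the difference turned to 0.0211 points. It was 0.00603 points after the contig L level of each library was subtracted.

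The next comparison asked whether mitochondrial CpGs exceeded the unmethylated reference. Contig L had levels of 0.253% and 0.252% in WT 1 and WT 2, and of 0.190% and 0.277% in ZNF274KO 1 and ZNF274KO 2. The mitochondrial level minus that of contig L was -0.00497, -0.0248, 0.00108 and -0.0188 points in the same order. Mitochondrial DNA was therefore above the reference in 1 of 4 libraries, by the smallest of these margins. The mean difference was -0.0119 ± 0.0120 points (SD, n = 4, two-sided exact sign permutation test, p = 0.25, smallest possible 0.125). With every CpG given the same weight the mean difference turned to 0.00899 points (exact p = 0.625). It was -0.0355 points without CpGs in nuclear copies, -0.0263 without the 10 highest CpGs and -0.0192 without the origin repeat (exact p = 0.125 each). Contig L carried 67505 to 112354 reads per library, and its interval in WT 1 ran from 0.218% to 0.294%. Within that library an excess of a few hundredths of a point would lie within counting error. Over the 4 libraries the exact test cannot go below 0.125, so it cannot call an excess of any size.

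The strands differed little as a whole. The Watson level was 0.261%, 0.228%, 0.197% and 0.265% in WT 1, WT 2, ZNF274KO 1 and ZNF274KO 2. The Crick level was 0.237%, 0.225%, 0.185% and 0.253% in the same order. Crick was lower than Watson in 4 of 4 libraries, by -0.0245, -0.00302, -0.0126 and -0.0116 points.

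The mean strand difference was -0.0129 ± 0.00882 points (SD, n = 4, exact sign permutation test, p = 0.125, the smallest that 4 libraries allow). Its sign depended on which CpGs were counted. Without the 4 CpGs of the light-strand origin the mean difference turned to 0.00240 points (exact p = 0.375), and without the CpGs that have a nuclear copy to 0.00700 points (exact p = 0.5). The CpGs that have a nuclear copy include all 4 of the origin, so these alternatives are not separate. Without the 10 highest CpGs, which include origin CpGs and those with high Crick levels, it was -0.0123 points (exact p = 0.125). On contig L the strand difference was 0.0974, 0.184, -0.0164 and -0.0675 points, which was larger than on mitochondrial DNA in every library and of opposite sign in the 2 groups. The mitochondrial strand difference was -0.0137 ± 0.0152 points in WT and -0.0121 ± 0.000726 in ZNF274KO (n = 2 each, exact permutation test, p = 1.0).

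**Figure D1:**
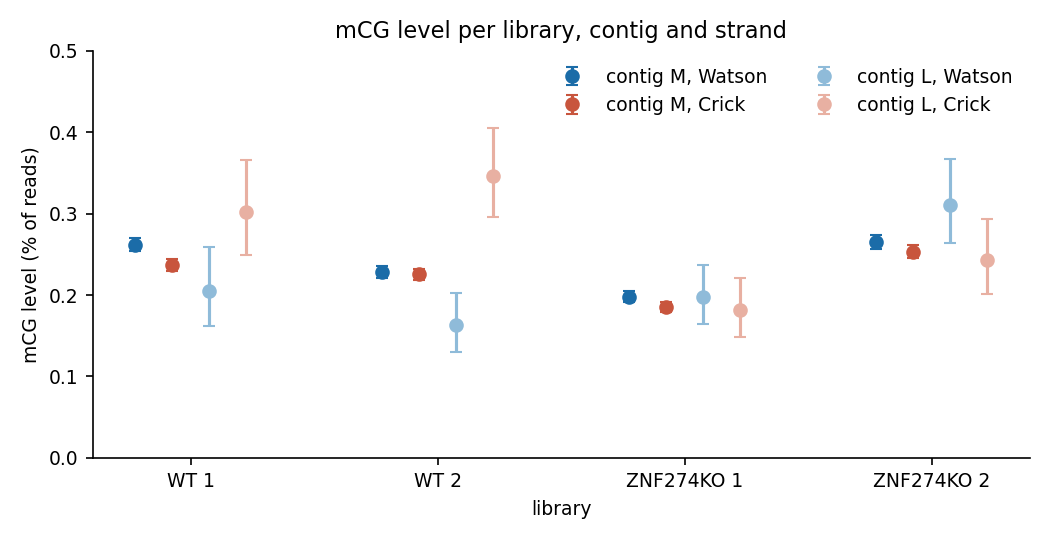
Level (percentage of reads with C) of all mitochondrial CpGs (contig M) and of contig L by strand in each library, with 95% Wilson intervals as bars. The mitochondrial values lie between 0.185% and 0.265% and within the range of the contig L values.

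Single CpGs were then compared between the strands. Of the 439 mitochondrial CpGs, 23 were called different (edgeR quasi-likelihood test, adjusted p under 0.05), which is 5.24% of mitochondrial CpGs. The fit took the strands of each library as separate samples and did not pair them. On both contigs together 1.81% of the 1270 CpGs fitted were called. None of the 831 on contig L was called, but that contig had only 21.7 to 36.1 reads per CpG on average, so the contigs' counts are not comparable. Crick was higher at 13 of the 23 (1.02% of all CpGs fitted) and Watson at 10 (0.787%), and each had the same sign in 4 of 4 libraries. Limma called 18, and all 18 were among the 23. The 23 were selected on these 4 libraries and limma used the same counts, so neither agreement is independent. Leaving out WT 1 gave 14 calls and leaving out WT 2 gave 13, of which 12 were among the 23.

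The largest differences were those at the light-strand origin, where Watson was higher. At 5737 the Watson level was 5.04% and 3.16% in WT 1 and WT 2, and 3.68% and 4.39% in ZNF274KO 1 and ZNF274KO 2. The Crick level there was 0.619%, 0.442%, 0.324% and 0.452%. WT held the highest and the lowest Watson value, so the groups overlapped. At 5740 the Watson level was 4.95%, 3.10%, 3.56% and 4.28% in the same order, and the mean Crick level was 0.254% ± 0.0702 (SD, n = 4). At 5755, in the other arm, Watson had 4.78%, 2.94%, 3.45% and 4.20%, and Crick 0.405% ± 0.108.

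The log2 odds ratio of Crick against Watson was -3.18 at 5737 (edgeR adjusted p = 1.2e-21), -4.00 at 5740 (adjusted p = 5.2e-27) and -3.29 at 5755 (adjusted p = 4.6e-27). The 3 CpGs lay within 1 read length of each other and were not independent: Watson reads with C numbered 104, 103 and 108 in WT 1, and 62, 61 and 62 in WT 2. The order of the libraries was also the same at all 3.

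The CpG at 5743, between the arms and only a few bases away, had a Watson level of 0.308% and a Crick level of 0.192%. The 19 other CpGs within 400 bases of the centre of the repeat had Watson levels of 0.180% to 0.448%. The high Watson level was thus found at the arm CpGs and not at those around or between them. The 3 CpGs were covered by about 2000 Watson reads each (means of 2002, 2013 and 2169), and 2 nuclear copies, on chromosomes 1 and 21, hold them. Taken whole, these copies had levels of 11.5% (159 CpGs) and 43.4% (6 CpGs), averaged over the libraries. The chromosome 1 copy had 29.8 to 36.5 reads per CpG. The chromosome 21 copy had 2.50 to 8.33, with only 15 to 50 reads in all per library. Levels at the 3 matching CpGs alone were not taken. The chromosome 1 copy was read at 3.39 to 3.69 times the autosomal mean, and the chromosome 21 copy at 0.285 to 0.778 times. The part of these copies in the high Watson level was not tested.

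**Figure D2:**
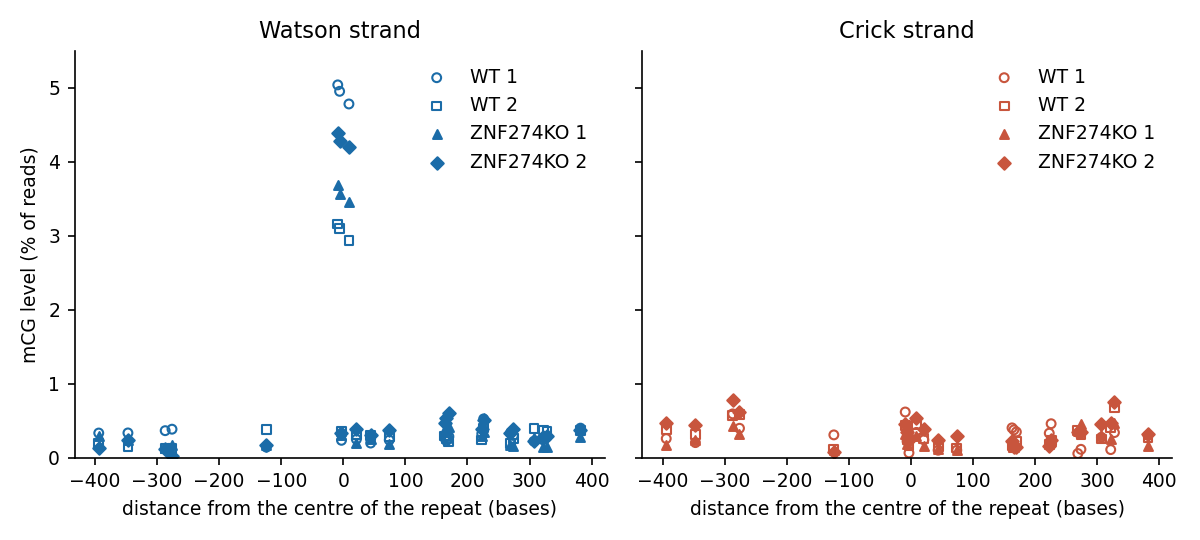
Watson (left) and Crick (right) levels of the CpGs within 400 bases of the centre of the inverted repeat at the light-strand origin, 1 point per CpG and library. The 3 arm CpGs sit between 2.94% and 5.04% on Watson in all 4 libraries, while every Crick value is below 1%.

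The mitochondrial sequence holds 11 perfect inverted repeats with arms of at least 8 bases and at most 30 bases between them, a search made after the levels were seen. They put the Watson C of 10 CpGs in an arm, which is 2.30% of the matched CpGs. Of these 10, 6 were among the 10 highest Watson levels and 0 among the 10 highest Crick levels. The Watson ranks of the 6 were 1, 2, 3, 6, 8 and 9, so some CpGs outside the arms ranked between them. The 6 include the 3 origin CpGs, which share reads and were already known to be high. These counts go by the position of the Watson C only, so they are a description and do not compare the strands. Beyond the origin, 3900 and 3909, in the MT-ND1 repeat shown above, had Watson levels of 0.496% ± 0.144 and 0.483% ± 0.0737 (SD, n = 4) and Crick levels of 0.227% and 0.225%. Watson was called higher at both (edgeR adjusted p = 0.014 and 0.0225), but neither was called by limma or without WT 1 or WT 2.

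In the MT-CO1 repeat, 7331, 7336 and 7341 had Watson levels of 0.381%, 0.425% and 0.516% against Crick levels of 0.271%, 0.237% and 0.308%, and none was called (edgeR adjusted p at least 0.740). The last 2 arm CpGs, 3696 in MT-ND1 and 6242 in MT-CO1, had 0.371% and 0.219% on Watson. The origin repeat stood far above the rest. Every other repeat with the Watson C of a CpG in an arm had arms of 8 bases, the shortest searched. A relation of the level to arm length was therefore not tested.

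The highest Crick levels lay elsewhere, in protein genes. MT-ND3, MT-ND1 and MT-ND2 encode subunits of complex I, MT-ATP6 a subunit of the ATP synthase, and MT-CYB the cytochrome b of complex III. At 10202 in MT-ND3, Crick had 1.84% and 1.27% in WT 1 and WT 2 and 1.61% and 1.76% in ZNF274KO 1 and ZNF274KO 2, and Watson 0.420%, 0.159%, 0.0956% and 0.213%. The log2 odds ratio was 2.89 (edgeR adjusted p = 2.5e-25). At 10196, upstream in the same stretch, Crick had 1.21%, 0.786%, 1.08% and 1.11%, and Watson at most 0.207% (log2 odds ratio 2.74, adjusted p = 1.1e-17). The 5 other CpGs within 100 bases had Crick levels of 0.103% to 0.234%.

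At 3549 in MT-ND1, Crick had 1.62%, 1.12%, 1.31% and 1.39% in WT 1, WT 2, ZNF274KO 1 and ZNF274KO 2, against Watson values of at most 0.199%. The log2 odds ratio was 3.11 (edgeR adjusted p = 2.3e-24), and the 6 other CpGs within 100 bases had 0.249% to 0.346% on Crick. The neighbours 8580 and 8583 in MT-ATP6 had Crick levels of 1.11% ± 0.257 and 1.05% ± 0.286 (SD, n = 4) and Watson levels of 0.114% and 0.155%. Both were called (edgeR adjusted p = 1.1e-22 and 1.2e-17), and the 3 other CpGs nearby had at most 0.136% on Crick. As at the origin, the same reads covered both: 51 and 46 Crick reads with C in WT 1, 37 and 32 in ZNF274KO 1.

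Crick levels were lower, but still called, at 14944 in MT-CYB (0.644% ± 0.169, adjusted p = 3.0e-06) and at 5459 and 5470 in MT-ND2 (0.591% ± 0.145 and 0.483% ± 0.145, edgeR adjusted p = 3.7e-05 and 0.00401). The call at 5470 was lost in some of the alternatives, and those at 14944 and 5459 in none of the 8. A Crick level of 0.560% at 6074 in MT-CO1 did not pass the test (adjusted p = 0.221). In none of these Crick-high CpGs was the Watson C, or the Crick C beside it, in an arm of an inverted repeat of the kind searched.

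The remaining calls were small in absolute terms. Crick was higher at 3162 in MT-RNR2, the large ribosomal RNA (0.369% against 0.155%), at 10933 in MT-ND4 (0.399% against 0.127%) and at file position 262, which was unmatched (0.449% against 0.164%). Watson was higher at 1414 in MT-RNR1, the small ribosomal RNA (0.3002% against 0.115%), at 2718 in MT-RNR2 (0.353% against 0.130%), and at 9381, 9383 and 9393 in MT-CO3 (0.245% to 0.270% against 0.0866% to 0.0950%). These values are means over the 4 libraries, and each of the 8 calls was lost in at least 1 alternative.

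Unmatched CpGs at file positions 11018 and 15933 were called because Watson was almost empty. Watson reads with C numbered 0, 1, 1 and 0 at 11018, of 3442 to 4632 reads, and 0, 1, 0 and 0 at 15933, of 3321 to 4179 reads. A count of 0 allows a level of up to 0.0726% in WT 1 and 0.0872% in ZNF274KO 2 at 11018. Their Crick levels, 0.192% and 0.186%, lay near the median of 0.207% over all CpGs. No CpG of the GRCh37 sequence corresponds to them, and the base that these cells carry there was not tested. The other unmatched CpG, at 8860, had 0.343% on Watson and 0.214% on Crick and was not called.

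**Figure D3:**
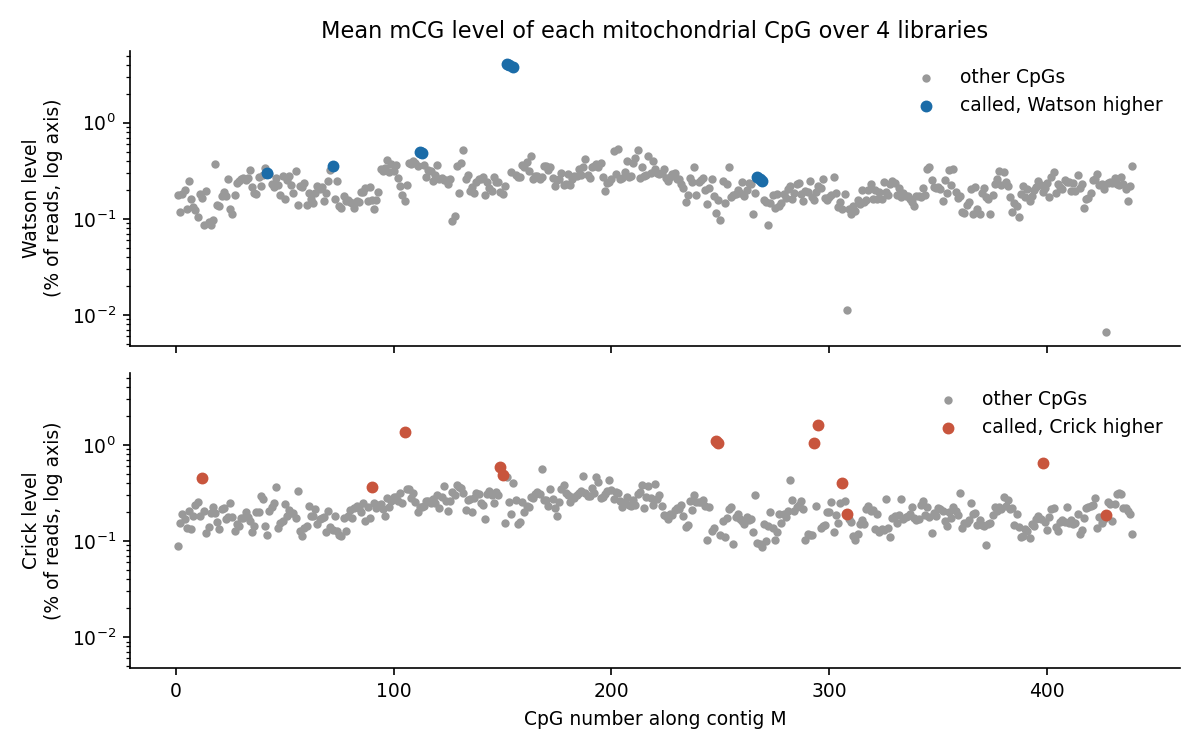
Mean level of each of the 439 mitochondrial CpGs over 4 libraries, Watson above and Crick below, in order along the contig on a log axis, with CpGs called higher on that strand in colour. A group of 3 Watson points near 4% and 5 Crick points above 1% stand above a band near 0.2%, and 2 unmatched CpGs lie far below the band on Watson.

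Apart from these CpGs the levels formed a narrow band. The median over the 439 CpGs was 0.221% on Watson and 0.207% on Crick, with 5th to 95th percentiles of 0.118% to 0.381% and 0.117% to 0.373%. Levels above 0.5% were found at 7 CpGs on Watson and 8 on Crick. The levels of single CpGs were compared between libraries. Between pairs of libraries Pearson's r over CpGs was 0.877 to 0.945 on Watson and 0.681 to 0.749 on Crick, and without CpGs above 1% it was 0.252 to 0.410 and 0.329 to 0.517. Spearman's rho over all CpGs was 0.314 to 0.399 on Watson and 0.311 to 0.463 on Crick. Between the strands of the same CpG r was 0.118, and 0.352 without the 8 CpGs above 1%. These correlations describe the CpGs, which share libraries, depth and reads.

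The base before the cytosine went with its level on both strands outside the light-strand origin, whose 4 CpGs were left out here. Among those left out, 5737 and 5740 follow a C on Watson and had the highest Watson levels of all. The median Watson level was 0.239% after A (120 CpGs) and 0.253% after G (55), against 0.206% after C (139) and 0.191% after T (121). On Crick the medians were 0.248% after A (78) and 0.219% after G (155), against 0.184% after C (78) and 0.175% after T (124). The medians were thus higher after purines than after pyrimidines. By the base after the CpG, the 4 medians on Watson lay between 0.209% and 0.230% without such a split. On Crick they were 0.204% before A and 0.225% before G, against 0.195% before C and 0.190% before T. These values carry no test, since the CpGs of 1 base share reads and position.

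By annotated part, levels were given as means over the 4 libraries with their SD. The control region, which holds the heavy-strand origin and the promoters, had 0.192% ± 0.0405 over 28 CpGs. The ribosomal RNA genes had 0.195% ± 0.0295 (72 CpGs) and the tRNA genes 0.203% ± 0.0333 (24). Complex I genes had 0.229% ± 0.0237 (146), complex III, that is MT-CYB, 0.200% ± 0.0466 (35), complex IV 0.260% ± 0.0341 (107) and complex V 0.224% ± 0.0265 (19). ZNF274KO 1 had the lowest level in each of these parts, so the SDs include a shift shared by whole libraries. Within every library complex IV was the highest of the 7 parts. It had 0.279% and 0.263% in WT 1 and WT 2, and 0.211% and 0.287% in ZNF274KO 1 and ZNF274KO 2. The lowest part differed between libraries. With the strands summed, none of the 7 parts had groups that did not overlap. Single mitochondrial CpGs had groups that did not overlap at 28.7% with the strands summed, 30.5% on Watson and 30.3% on Crick. On Watson alone 2 of the 7 parts were apart, both with ZNF274KO higher: the control region (0.165% and 0.250% against 0.143% and 0.156%) and complex V (0.194% and 0.207% against 0.174% and 0.188%). Of the 28 genes with a CpG, ZNF274KO was lower in 6 and higher in 2 without overlap with the strands summed, lower in 8 and higher in 3 on Watson, and 3 each way on Crick. These are 28.6%, 39.3% and 21.4% of the genes, and with 2 libraries per group such counts are a description only.

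Levels were also followed along the molecule. The protein genes from MT-ND1 to MT-CO2 lay in the upper part of the order: MT-ND1 had 0.309% ± 0.0340 (31 CpGs), MT-CO1 0.308% ± 0.0299 (56), MT-ND2 0.276% ± 0.0511 (21) and MT-CO2 0.246% ± 0.0576 (29). The 5 tRNA genes between them that hold a CpG, with 1 to 3 CpGs each, ran from 0.191% ± 0.0611 in MT-TA to 0.322% ± 0.105 in MT-TM. Among complex IV and complex I genes outside this stretch, levels were 0.182% ± 0.0240 in MT-CO3, 0.177% ± 0.0202 in MT-ND4 and 0.191% ± 0.0102 in MT-ND5. MT-ND3 reached 0.302% ± 0.0496 over 9 CpGs, but its median CpG was at 0.177%, below that of MT-CO2 at 0.241%, and Crick exceeded Watson there in 4 of 4 libraries (0.401% against 0.192%). Of the genes with at least 4 CpGs, MT-TE was lowest at 0.145% ± 0.0255.

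Without the origin, the 147 CpGs from MT-ND1 to MT-CO2 had 0.306% and 0.288% in WT 1 and WT 2, and 0.232% and 0.323% in ZNF274KO 1 and ZNF274KO 2. The 284 matched CpGs outside the stretch had 0.210%, 0.193%, 0.164% and 0.221%. Every library was higher inside, and the lowest library inside lay above the highest outside. The stretch was chosen after its values were seen, so the difference carries no test. Both strands took part, with 0.292% inside against 0.195% outside on Watson and 0.283% against 0.198% on Crick.

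**Figure D4:**
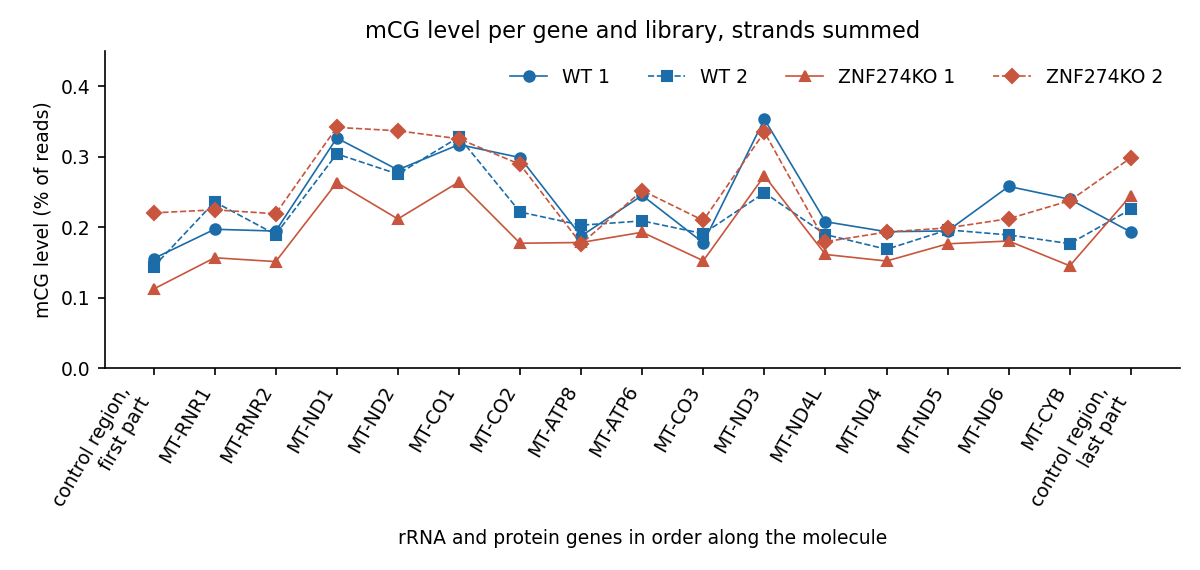
Level of the rRNA and protein genes and both parts of the control region in order along the molecule, strands summed, 1 line per library. All 4 libraries are higher at MT-ND1 and MT-CO1 than at MT-RNR2 and MT-ATP8, and MT-ND3 stands out once more, with 0.249% to 0.353%.

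Most of this stretch has a near-identical nuclear copy. The longest of 13 nuclear copies with at least 95% identity lies on chromosome 1 from 564461 to 570304 in GRCh37 and matches mitochondrial positions 3911 to 9755 at 98.5% identity. It holds 163 of the 435 matched CpGs, and any copy holds 212. Levels of the 11 other copies that had a measured CpG ran from 15.1% to 94.0%, averaged over the libraries. Without the 4 origin CpGs, mitochondrial CpGs within the longest copy had 0.261% ± 0.0351, and with them 0.283% ± 0.0376. Those outside it had 0.206% ± 0.0266 (SD, n = 4).

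The higher level and the copy did not coincide in full. The 20 CpGs from MT-ND1 to MT-CO2 that lie before the copy starts had 0.321% ± 0.0508. The 32 CpGs after MT-CO2 that the copy still covers had 0.199% ± 0.0238. The 223 matched CpGs in no copy had a level of 0.208% ± 0.0272. When the 212 CpGs in copies were left out and the unmatched ones kept, the difference between groups was -0.0116 points (exact permutation test, p = 0.667). The part of nuclear reads in the level of the stretch was not tested beyond these values.

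Mitochondrial CpGs were read far more often than autosomal ones. They carried 2796520 to 3600642 reads per library, a mean of 6370 to 8202 per CpG with no CpG below 537 reads. This was 699, 851, 821 and 725 times the mean of autosomal CpGs in WT 1, WT 2, ZNF274KO 1 and ZNF274KO 2. WT libraries averaged 775 ± 107 times and ZNF274KO libraries 773 ± 67.6 times (SD, n = 2 each, exact permutation test, p = 1.0). From such reads, copies of mitochondrial DNA per cell and losses in mapping or library preparation cannot be told apart.

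Reads were not even between strands or along the molecule. Watson carried fewer reads than Crick, with ratios of 0.869, 0.789, 0.847 and 0.829 in WT 1, WT 2, ZNF274KO 1 and ZNF274KO 2. At 33 CpGs the Watson reads numbered less than 0.5 times the Crick reads, and all 33 lay within the longest nuclear copy. The lowest ratio was at 4463 in MT-TM, a tRNA gene, with 395 Watson and 4001 Crick reads on average, while the levels there were 0.358% and 0.386%. Watson reads with C numbered 2, 3, 1 and 0 there, too few to order the strands.

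**Figure D5:**
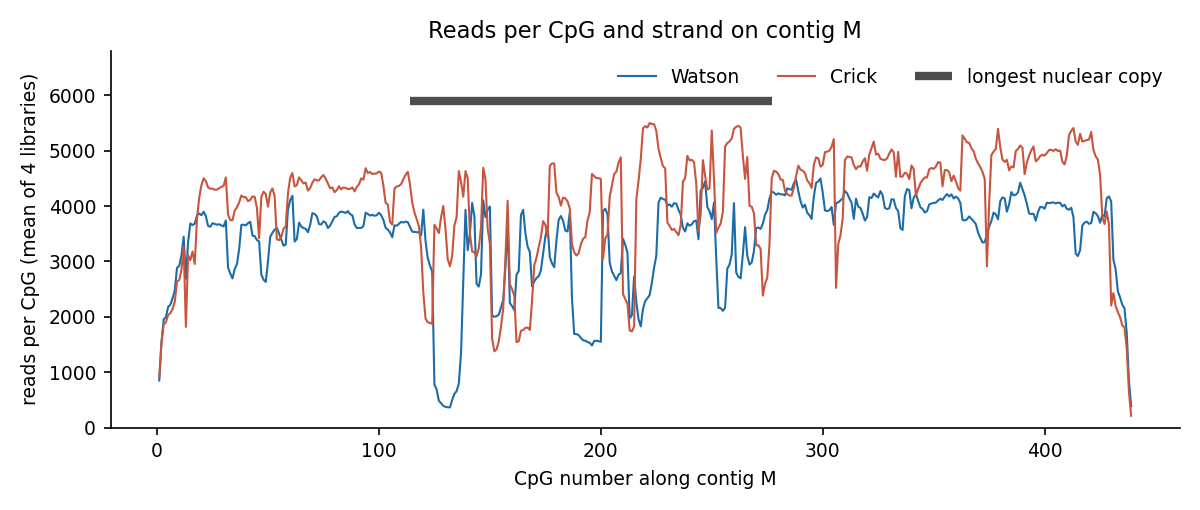
Reads per CpG on Watson and Crick along contig M, as the mean of 4 libraries, with the extent of the longest nuclear copy as a bar. Watson falls to 395 reads at its lowest strand ratio, within the copy, and both strands fall at the ends of the linear contig.

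Single CpGs were finally compared between WT and ZNF274KO. With edgeR's quasi-likelihood test, 0.0% of the 2276 CpGs fitted on both contigs were called, and 0 of the 439 mitochondrial ones. At an unadjusted p under 0.05 there were 14 of the 439. That is a smaller share than the 0.05 such a threshold passes without any difference. Limma called 1 on each contig. The 28.7% of mitochondrial CpGs at which the groups did not overlap were 126 CpGs. With 2 libraries per group such separation is common without any difference, and the count is a description only. The share of 0.708% on contig L is no yardstick for it, since that contig had only 21.7 to 36.1 reads per CpG on average. ZNF274KO was lower at 88 of the 126 and higher at 38, where over both contigs 4.04% were lower and 2.07% higher. When reads were simulated at the observed depths, 46% of CpGs raised 2-fold in ZNF274KO and 96% of those raised 4-fold were recovered. Decreases were not simulated, so the recovery of lower levels is not known.

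The CpG that limma called was the last of the contig, at 16565 in the control region, chosen here after its values were seen. It had 0 reads with C of 657 in WT 1 and 0 of 608 in WT 2, and 3 of 624 in ZNF274KO 1 and 3 of 537 in ZNF274KO 2. A count of 0 allows a level of up to 0.457% and 0.493% in the WT libraries, and the ZNF274KO levels were 0.481% and 0.559%, so that ZNF274KO 1 lay within the limit of WT 2. EdgeR gave an unadjusted p of 0.0148 and an adjusted p of 1 there.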

How the data were processed

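EM-seq reads of 4 libraries were processed by the authors with Msuite2 (bisulfite mode), which ran HISAT2 against hg19 plus rDNA. They deposited raw read counts per CpG, strand and base call for each library, neither pooled nor normalised. How duplicates and poorly mapped reads were treated is not given in the sources used here. Contigs M, L and P were named as in the files, and the identity of L and P was not given.

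Members and lists were chosen with earlier results of these data known. Levels were C over C plus T reads, summed over CpGs. Library values were compared by exact permutation, and single CpGs by the quasi-likelihood test of edgeR 4.0.16 (R 4.3.3) with a coefficient per library. The strand comparison had a coefficient per library and strand, and neither edgeR nor limma paired the strands of a library. Contigs M and L were fitted together, with at least 20 reads (10 per strand) in every library and Benjamini-Hochberg adjustment over all CpGs fitted. CpGs of the remaining genome were not fitted. Limma 3.58.1 used log2 ratios with a pseudocount of 1. CpGs were matched to GRCh37 by order and neighbouring bases, and nuclear copies were found with BLAST 2.17.0 (at least 95% identity over 100 bases). Reads were simulated at the observed depths from the mean level of each contig. Of CpGs raised in ZNF274KO, 23 of 50 at 2-fold and 48 of 50 at 4-fold were recovered among 2276 fitted. Of CpGs raised on Crick, 22 and 49 of 50 were recovered among 1270, with 0 false calls in both. Decreases were not simulated, and single CpGs varied between libraries only by counting and a shift per library. Library spread was set in that simulation and may differ from the real one. Named CpGs were the 10 highest, the 5 largest called differences per direction, and further called or unmatched ones added after their values were seen. Tables and figures were made with pandas 2.3.3, numpy 2.4.6, matplotlib 3.10.9 and scipy 1.17.1 under Python 3.11.15.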

Additional observations from a re-analysis of the deposited data

Results flagged for a closer look

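The strand difference of contig L, the unmethylated reference, had opposite signs in the groups. Crick was higher than Watson in WT 1 (0.0974 points) and WT 2 (0.184) and lower in ZNF274KO 1 (-0.0164) and ZNF274KO 2 (-0.0675), so that ZNF274KO minus WT was -0.182 points. This difference between groups was not tested. The contig carried 33727 to 57705 reads per strand, against at least 1267310 on the mitochondrial strands. In WT 2 the Watson and Crick intervals (0.130% to 0.203% and 0.296% to 0.405%) did not overlap. In WT 1, ZNF274KO 1 and ZNF274KO 2 they overlapped.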

How the results depend on the processing

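Alternatives with CpGs in nuclear copies, the origin repeat or unmatched CpGs left out, and the crossed pairing, were chosen after seeing the data. The level difference between groups ranged from -0.0469 to 0.0211 points when libraries were left out in turn, turned to 0.0211 without ZNF274KO 1 and to 0.00603 relative to contig L. The difference from contig L ranged from -0.0162 to -0.00756 and turned to 0.00899 with equal weights for CpGs of at least 20 reads. It was -0.0355 without nuclear copies, -0.0263 without the 10 highest CpGs and -0.0192 without the origin repeat. The strand difference ranged from -0.0162 to -0.00906 and was -0.0123 without the 10 highest CpGs. It turned to 0.00700 without nuclear copies, which cover the origin CpGs, and to 0.00240 without the origin repeat. Its difference between groups ranged from -0.00906 to 0.0124, with the negative value without WT 1. The depth difference between groups, -1.91, ranged from -77.8 to 74.0 and was 43.2 by medians. Calls between strands numbered 13 to 18 with a library left out, 17 with a minimum of 5 reads, 18 by limma and 27 with a minimum of 100 reads or contig M alone. Calls between groups stayed at 0, other than 1 by limma. The strand difference at 6854 ranged from -0.0111 (without ZNF274KO 2) to 0.143.

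The replicate block left the level difference at -0.0129 points (differences of -0.0577 and 0.0319 within numbers, exact p = 1.0) and the calls between groups at 0. Deviations of same-numbered libraries correlated at -0.323 over 439 CpGs and at 0.0366 without the origin arms, and the crossed replicate block also called 0. The depth of contig L limits the comparison with it, and 2 libraries per group limit those between groups.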
